A study of Homo sapiens with 8 samples.

Results

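Coverage around the ends of genes was followed at 6000 positions, 3000 before and 3000 after the gene end, in RPE1 cells profiled by OGAP-seq. These positions are the whole gene-end profile of the deposited table and were chosen by their place in it, not by their values; they are 6000 of 15000 positions and bins that the deposited profiles hold. RPE1 is an hTERT-immortalised human line from the retinal pigment epithelium, and OGAP-seq belongs to the AP-seq family of methods, in which abasic sites in DNA are tagged and the tagged fragments are pulled down and sequenced; the labels do not describe the pull-down. The 4 groups were wild-type cells without doxycycline (WT) and post-doxycycline cells with knockdown of NuMA, also labelled TDIF (KD), each as pulled-down DNA (OGAP) and as input DNA that was not pulled down, with 2 libraries a group and 8 in all. Knockdown and doxycycline cannot be told apart, since no doxycycline-treated cells without knockdown were analysed here. Nothing in the labels says whether replicate libraries were grown as separate cultures, so the p-values measure the spread between libraries alone, and that spread may be technical. The values are DNA coverage, which carries no expression marker of the cell type, so the label RPE1 was not checked against markers.

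A gene end is where the annotated transcript stops. There the nascent RNA is cleaved and polyadenylated, and RNA polymerase II runs on into the flanking DNA before it lets go of the template. The last stretch of most human genes is a 3′ untranslated region, rich in A and T and containing the polyadenylation signal, and DNA composition is known to shift on passing from there into the flank. Guanine is the base most easily oxidised, and 8-oxoguanine is removed by base excision repair, which passes through an abasic site and a single-strand break. NuMA is a large nuclear protein best known for organising the spindle poles in mitosis.

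Each deposited value is coverage summed over genes at 1 position. The mean sum over the gene-end profile was 24531 and 27956 in WT OGAP. It was 32578 and 29243 in KD OGAP, 35862 and 33710 in WT input, and 34139 and 33702 in KD input. The same libraries held 368593 to 771138 reads in promoter windows, fewest in WT OGAP and most in the inputs. To compare shapes, every profile was divided by the mean of its own outermost 1000 positions on each side, so that a level of 1 is the outer level of that library. Position-to-position changes in coverage were most strongly opposed at a distance of 150 positions in all 16 gene-start and gene-end profiles, with correlations of -0.42 to -0.23 there and of no less than -0.074 at every other distance tried, all under 500. Each fragment therefore appears as a stretch of 150 positions, and neighbouring values share reads. Taken as such stretches, the 500 positions before the gene end held 67521 to 125696 reads a library. The counting error on the level of that window was then 0.00319 to 0.00353, a lower limit because a read can count for more than 1 gene.

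Pulled-down DNA was depleted just before the gene end, and input DNA was raised further inside the gene. WT OGAP fell to its lowest level, 0.726 and 0.745, at positions -42 and -44, where negative positions are before the gene end. KD OGAP was lowest at positions -8 and -24, at 0.896 and 0.843. Every OGAP low point thus lay closer to the end than the 150 positions of a single read. Input profiles instead peaked between positions -454 and -349. WT input reached 1.09 and 1.13 there, and KD input 1.09 and 1.07.

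**Figure D1:**
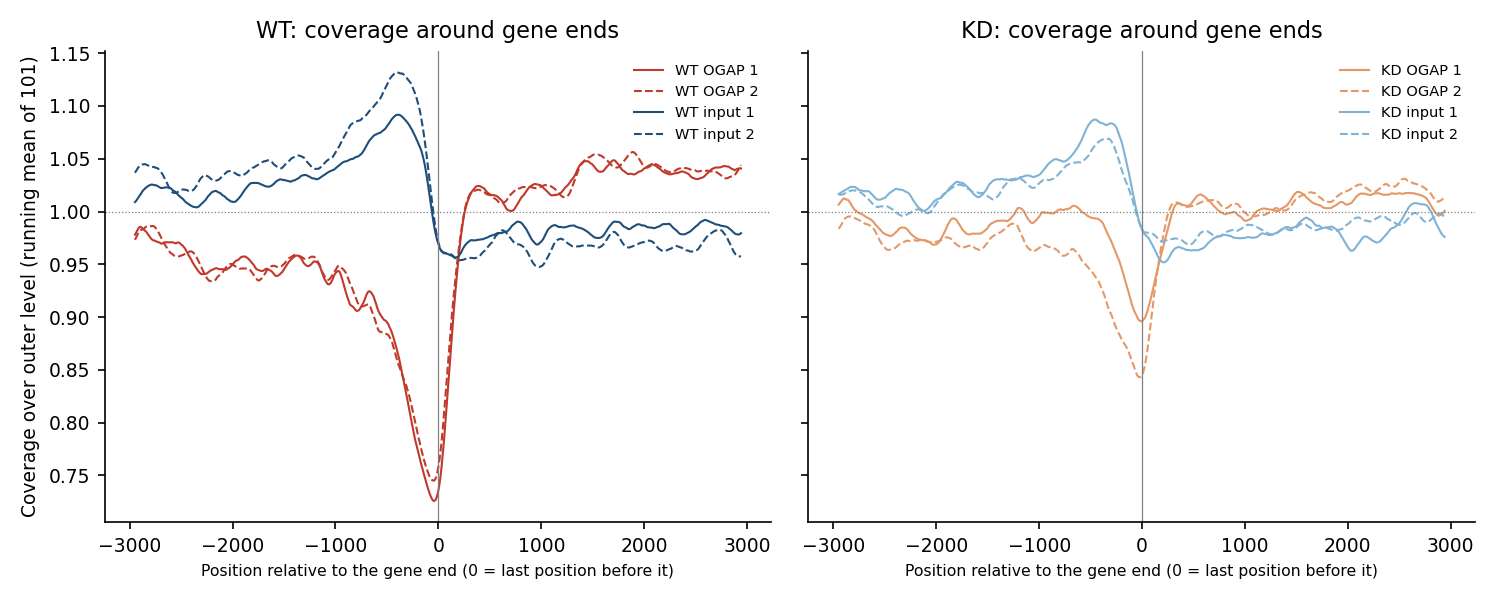
Coverage over each library's outer level (y axis, running mean of 50 positions on either side) against position relative to the gene end (x axis), with WT libraries left and KD libraries right. Solid lines are replicate 1 and dashed lines replicate 2; OGAP profiles dip before the gene end, to 0.726 and 0.745 in WT, where the input profiles have passed a peak of 1.07 to 1.13 and are falling.

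Around the gene end, both kinds of profile changed abruptly and in opposite directions. OGAP made its steepest climb over a stretch of 150 positions that began 8 to 42 positions after the gene end, rising by 0.190 and 0.185 in WT and by 0.0650 and 0.115 in KD. All 4 OGAP libraries were back at 1, the mean of both flanks, 253 to 296 positions after the gene end. Their after flank alone stood at 1.04 and 1.04 in WT and at 1.01 and 1.02 in KD, so this crossing depends on the divisor. Input made its steepest descent over 150 positions that ended between positions -37 and -7, with changes of -0.0928 and -0.119 in WT and -0.0791 and -0.0494 in KD. Input passed below 1, again the mean of both flanks, between positions -64 and -51 in all 4 libraries. The depletion in OGAP was lopsided in WT: from the low point, the profile reached the midpoint to its flank after 306 and 337 positions on the gene side and after 172 and 166 on the far side. In KD the 2 libraries differed in this, with 179 and 312 positions on the gene side against 181 and 156 on the far side.

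The side before the gene end was lower in OGAP than in input. Over the 2000 positions before it, the level was 0.903 and 0.905 in the WT OGAP pair, 0.982 and 0.950 in the KD OGAP pair, 1.04 and 1.07 in WT input, and 1.04 and 1.03 in KD input. All 4 OGAP libraries lay under 1 and all 4 inputs over it. OGAP minus input was -0.111 ± 0.020 (SE, n = 4 and 4), with an exact permutation p of 0.0286, two-sided, the smallest that 4 against 4 libraries allow, and a Benjamini-Hochberg adjusted p of 0.0333 over 7 measures. Without WT input 2 it was -0.104 with an adjusted p of 0.0667 by the same exact test. The gap was wider in the nearest 500 positions. They stood at 0.801 and 0.809 in the WT OGAP pair, 0.953 and 0.892 in the KD OGAP pair, 1.06 and 1.09 in WT input, and 1.06 and 1.04 in KD input. No OGAP library reached an input library, and the difference was -0.199 ± 0.038 (exact permutation p = 0.0286, adjusted p = 0.0333). The adjusted p was 0.0667 when any 1 input was left out, at -0.190 without WT input 2, -0.200 without WT input 1 or KD input 1, and -0.206 without KD input 2 (exact permutation). Within WT the difference was -0.270 ± 0.016 and within KD -0.128 ± 0.032, both without overlap. There, 2 against 2 libraries cannot go below an exact p of 0.33. Tests of all 4 OGAP libraries against all 4 inputs, here and below, pooled WT and KD libraries as interchangeable. Yet WT and KD OGAP libraries did not overlap in these windows. A permutation of assay within each state was not run, and with 2 libraries a group it could not go below 0.05.

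On the side after the gene end, the order of the assays was the other way round at this scaling. Over 2000 positions the level was 1.01 and 1.01 in the WT OGAP pair, and 0.996 and 0.997 in the KD OGAP pair. It was 0.979 and 0.966 in WT input, and 0.975 and 0.980 in KD input. OGAP lay above input in every library, by 0.0279 ± 0.0051 (exact permutation p = 0.0286, adjusted p = 0.0333), a smaller gap than before the gene end. Without WT input 2 the gap was 0.0249. Its exact permutation p stayed at 0.0286, and its adjusted p rose to 0.0667 because other measures had larger p-values. This direction depends on the divisor: set against the after flank alone, OGAP was lower by 0.0165 (a difference of -0.0165, exact permutation, adjusted p = 0.0286). In the nearest 500 positions, levels were 0.945 and 0.952 in the WT OGAP pair, 0.969 and 0.965 in the KD OGAP pair, 0.966 and 0.958 in WT input, and 0.964 and 0.974 in KD input. The assays overlapped there, with OGAP minus input at -0.0078 ± 0.0065 (exact permutation p = 0.286). It was -0.0035 without WT OGAP 1 and -0.0116 without KD OGAP 1. That window averages the end of the OGAP depletion with the recovered stretch beyond it, and over the nearest 200 positions alone OGAP was lower by 0.0813 (a difference of -0.0813, adjusted p = 0.0286, exact permutation test).

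**Figure D2:**
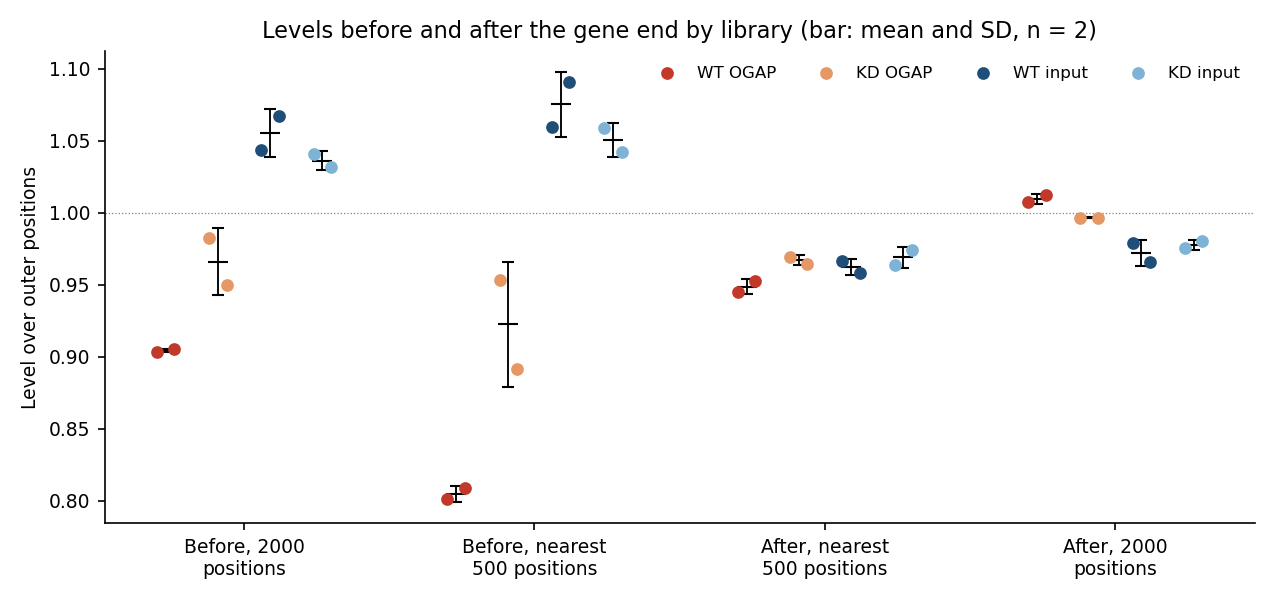
Level over outer positions (y axis) in 4 windows (x axis) before and after the gene end, with 1 point per library, and bars for the mean and SD of each group (n = 2); the y axis does not start at 0. OGAP and input are far apart before the gene end, at 0.801 to 0.953 against 1.04 to 1.09 in the nearest 500 positions, and overlap in the nearest 500 positions after it.

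The change from one side to the other also separated the assays, and a single divisor per library cannot turn its sign. After minus before, over 2000 positions a side, was 0.104 and 0.107 in the WT OGAP pair, 0.0138 and 0.0471 in the KD OGAP pair, -0.0650 and -0.101 in WT input, and -0.0656 and -0.0510 in KD input. Every OGAP library was higher after the gene end and every input was lower. The assays differed by 0.139 ± 0.025 (exact permutation p = 0.0286, adjusted p = 0.0333), and the step over 500 positions a side differed by 0.191 ± 0.034 with the same p. Without WT input 2 these were 0.128 and 0.179, both with an adjusted p of 0.0667 (exact permutation). With a line through both flanks as divisor, after minus before differed by 0.103. Within the 4 OGAP libraries alone, or the 4 inputs alone, an exact sign-flip test cannot go below 0.13, which was its value in each.

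The outer flanks were themselves unequal, so the divisor joins levels that differ. The ratio of the last 1000 positions to the first 1000, which needs no scaling, was 1.08 and 1.08 in the WT OGAP pair, 1.03 and 1.04 in the KD OGAP pair, 0.970 and 0.939 in WT input, and 0.970 and 0.986 in KD input. All OGAP libraries held more coverage far after the gene than far inside it, and all inputs less. The assays differed by 0.0918 ± 0.0170 (exact permutation p = 0.0286, adjusted p = 0.0333). Without WT input 2 it was 0.0826, with an adjusted p of 0.0667 (exact permutation).

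Divided into 12 bins of 500 positions, the profile split at the gene end. OGAP was lower than input in 6 of 6 bins before the gene end and higher in 5 of 6 after it, at an adjusted p of 0.0312 each (exact permutation test, adjusted over 12 bins). Over the 24 bins of the gene-start and gene-end profiles, 58.3% were lower and 25.0% higher by the same rule. That share pools both sides and includes the gene-end bins. On the gene side of gene starts 5 of 6 bins were lower and 0 higher, and before gene starts 3 of 6 were lower and 1 higher. Lower bins inside the gene were thus not particular to gene ends. The bin that did not pass was the first after the gene end. The gap widened toward the gene end, from -0.0381 in the outermost bin before it through -0.0664 in the bin that begins at position -1500 to -0.199 in the last bin. After the gene end it lay between 0.0355 and 0.0501 in the 5 outer bins. The outermost positions of each side form the divisor. There, lower levels before the gene end come with higher levels after it by construction. Calls in the bins that form the divisor are thus not separate evidence. With the after flank alone as divisor, 8 bins were lower and 1 was higher, so most of the higher calls depend on the divisor. Without WT input 2, 0 bins passed in either direction. Without any other single input, 4 lower and 5 higher bins passed. With fewer libraries the exact p takes only coarse steps, and the adjusted p of a bin depends on the p of the others. These counts alone therefore do not show that the bin differences rest on WT input 2.

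At single positions, all 4 OGAP libraries were below all 4 inputs at 2981 of the 3000 positions before the gene end (99.4%), where 55.9% of the 12000 positions around gene starts and ends were. That pooled share covers both sides of both profiles and includes these positions. Over both sides of gene ends the share below was 52.3%, and on the gene side of gene starts it was 76.1%. After the gene end they were below at 159 positions (5.30%) and above at 2669 (89.0%), against 26.6% above over both profiles. After a running mean, OGAP was below at all 2950 positions tested before the gene end and above at 2687 of 2950 after it (91.1%), where both profiles together gave 57.1% below and 27.2% above. These counts are descriptions, because neighbouring positions share reads. Against the before flank alone, the share below on the gene side was 60.0%; against the after flank alone, the share above on the far side was 1.97%. The far excess in OGAP was thus measured relative to a divisor that includes the gene-side flank.

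Position by position, the OGAP profile was also divided by the mean input profile of its state, a measure added after the profiles had been seen. With each profile scaled to both flanks, this quotient was under 1 at every position before the gene end in all 4 libraries. After the gene end it was under 1 at 6.07% to 6.43% of positions. It reached 1 at 196 and 187 positions after the gene end in WT and at 195 and 180 in KD. These shares and crossing points depend on the divisor, and other divisors were not tried for the quotient. The outer level after the gene end was itself 1.04 and 1.04 in WT OGAP, and 1.01 and 1.02 in KD OGAP. The lowest point of the quotient was 0.708 and 0.721 in WT, at positions -145 and -151, and 0.896 and 0.833 in KD, at positions -112 and -241.

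**Figure D3:**
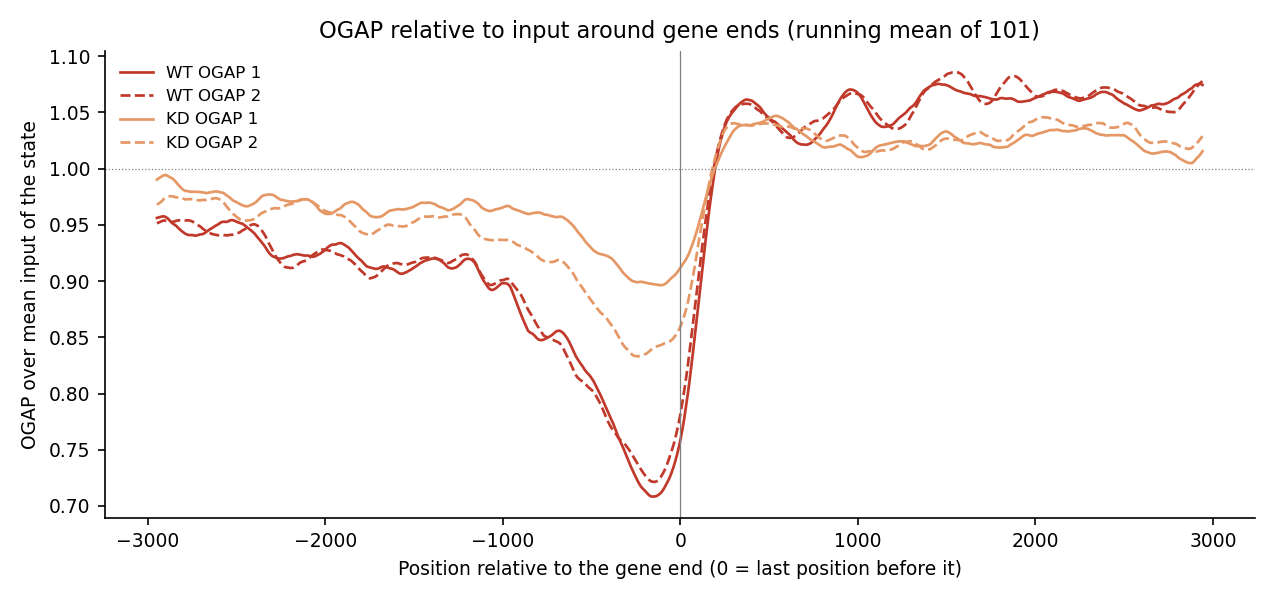
Each OGAP profile divided by the mean input profile of its state (y axis, running mean of 50 positions on either side) against position relative to the gene end (x axis); solid lines are replicate 1 and dashed lines replicate 2. With each profile scaled to both flanks, the curves fall to between 0.708 and 0.896 before the gene end. They pass 1 within 180 to 196 positions after it, a crossing that depends on the divisor.

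KD libraries had a shallower depletion than WT libraries. In the 500 positions before the gene end the quotient was 0.745 and 0.752 in WT against 0.907 and 0.849 in KD. The 2 WT libraries agreed closely, the KD libraries were further apart, and the states did not overlap. The mean depth below 1 in KD was 48.5% of that in WT (0.878 ± 0.041 against 0.748 ± 0.005, SD, n = 2 each), and it was 47.4% over the 2000 positions before the gene end. Both libraries of a state were divided by the same mean input, so these SDs and the lack of overlap leave out the spread between inputs. That spread was 1.06 and 1.09 in WT input, and 1.06 and 1.04 in KD input, in the nearest 500 positions. Before division by input, KD OGAP exceeded WT OGAP by 0.117 ± 0.031 (SE) in the nearest 500 positions and by 0.0617 ± 0.0164 in the 2000. After the gene end KD OGAP was lower over 2000 positions (KD minus WT, -0.0132 ± 0.0026), and the step across the gene end was smaller (KD minus WT, -0.0991 ± 0.0282). For each of the 7 measures the KD and WT libraries did not overlap, and the exact permutation p was 0.33, the smallest that 2 against 2 libraries allow. The sign of the 2000-position difference after the gene end turned with the after flank as divisor (0.00768), and with windows of 1000 positions (0.00416).

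Input DNA changed little and mostly in the opposite sense. KD minus WT in input was -0.0247 ± 0.0178 in the nearest 500 positions before the gene end and -0.0191 ± 0.0127 in the 2000, without overlap of the libraries, and 0.0056 ± 0.0069 in the 2000 after it, with overlap. KD input 1 (1.0586) and WT input 1 (1.0593) were nearly level in the nearest 500 positions, and WT input 2 (1.09) stood above the other 3 inputs. KD minus WT in input moved with it: without WT input 2 it was -0.00887 in that window, -0.00744 in the 2000 positions before and -0.000751 in the 2000 after, and without WT input 1 it was -0.0405, -0.0309 and 0.0120. The KD effect in OGAP exceeded that in input by 0.142 ± 0.036 in the nearest 500 positions and by 0.0809 ± 0.0207 in the 2000 before the gene end. Permuting the state within each assay gave an exact p of 0.056 for both, the smallest this design allows, and an adjusted p of 0.130 over 7 measures. No difference between KD and WT at gene ends therefore passed a threshold of 0.05.

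Along the profile, the KD excess in OGAP was concentrated before the gene end. It went from 0.0182 in the outermost bin to 0.0643 in the bin that begins at position -1000 and 0.117 in the last 500, stood at 0.0183 in the first bin after the gene end, and lay at -0.0330 to -0.00995 in the 5 bins beyond. The KD and WT OGAP libraries did not overlap in any of the 12 bins, with KD higher in 7 and lower in 5. In the outermost 1000 positions on each side, which form the divisor, higher levels before the gene end come with lower levels after it by construction. Over the 24 bins of the gene-start and gene-end profiles KD OGAP was higher without overlap in 58.3% and lower in 37.5%, so the lack of overlap is near the background and says nothing particular of gene ends. Input libraries did not overlap in 7 of 12 bins, with KD lower in 5 and higher in 2, against 41.7% and 12.5% over the 24 bins. Input differences stayed between -0.0264 and 0.0163.

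**Figure D4:**
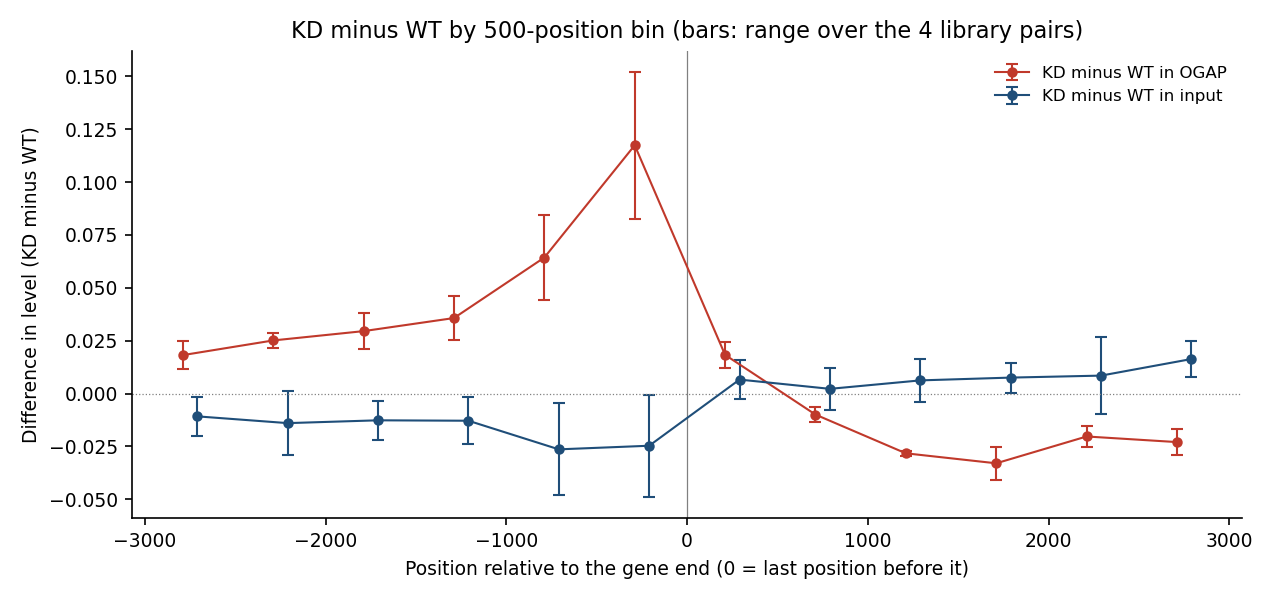
KD minus WT difference in level (y axis) by bin of 500 positions (x axis, position relative to the gene end), for OGAP and input; points are differences of the 2-library means and bars run from the smallest to the largest of the 4 differences between single libraries. The OGAP difference is largest, at 0.117, in the last bin before the gene end and negative from the second bin after it.

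KD OGAP 1 stood apart from the other pulled-down libraries. Across the 6000 positions it correlated with the 4 inputs at r = -0.22 to -0.12, where the other 3 OGAP libraries did so at -0.68 to -0.49. Profiles of the WT OGAP pair correlated at 0.99 and of the KD OGAP pair at 0.88, and input profiles with each other at 0.95 to 0.98. These are correlations over positions, which share reads and genes, and are given as descriptions. KD OGAP 1 also had the most promoter reads of the OGAP libraries (560174, against 368593 to 449833), and the part of depth in its shallower profile was not tested. Promoter reads do not measure depth alone, since levels at gene starts differed between libraries too. In the nearest 500 positions inside gene starts, KD OGAP 1 stood at 1.02, against 0.835 and 0.805 in WT OGAP, 0.918 in KD OGAP 2 and 1.16 to 1.36 in input. Without it, KD exceeded WT in OGAP by 0.0867 in the nearest 500 positions before the gene end, and without KD OGAP 2 by 0.148. The smaller waves of the profiles beyond 500 positions after the gene end, once a wide running mean had been taken out, correlated unevenly between libraries. The r was -0.093 to 0.48 over 6 OGAP pairs, -0.34 to 0.64 over 6 input pairs and -0.57 to 0.36 over 16 pairs of OGAP with input.

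Gene ends were also set beside gene starts within each library, by the windows inside and outside the gene. In the 500 positions inside the gene, OGAP stood at 0.801 and 0.809 in WT and 0.953 and 0.892 in KD at gene ends, and at 0.835 and 0.805 in WT and 1.02 and 0.918 in KD at gene starts. Gene end minus gene start was -0.031 ± 0.029 (SD, n = 4 libraries), negative in 3 of 4 libraries (exact sign-flip p = 0.25). Input inside the gene was 1.04 to 1.09 at gene ends and 1.16 to 1.36 at gene starts, a difference of -0.173 ± 0.065, negative in 4 of 4 libraries. Outside the gene, input was 0.958 to 0.974 after gene ends, against 1.09 to 1.20 before gene starts, a difference of -0.166 ± 0.050, again negative in 4 of 4. With 4 libraries the exact sign-flip p cannot go below 0.13, and it was 0.13 for both input differences (adjusted p = 0.194 over 14 comparisons). Whether the assays differed in this was not tested. By the same 500-position windows, OGAP minus input was -0.341 inside and -0.204 outside the gene at gene starts. At gene ends it was -0.199 inside and -0.00775 outside. The gap at gene starts was thus wider inside the gene and also present outside it. All 4 inputs stood above 1 on both sides of gene starts, and above 1 inside but below 1 outside the gene at gene ends.

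**Figure D5:**
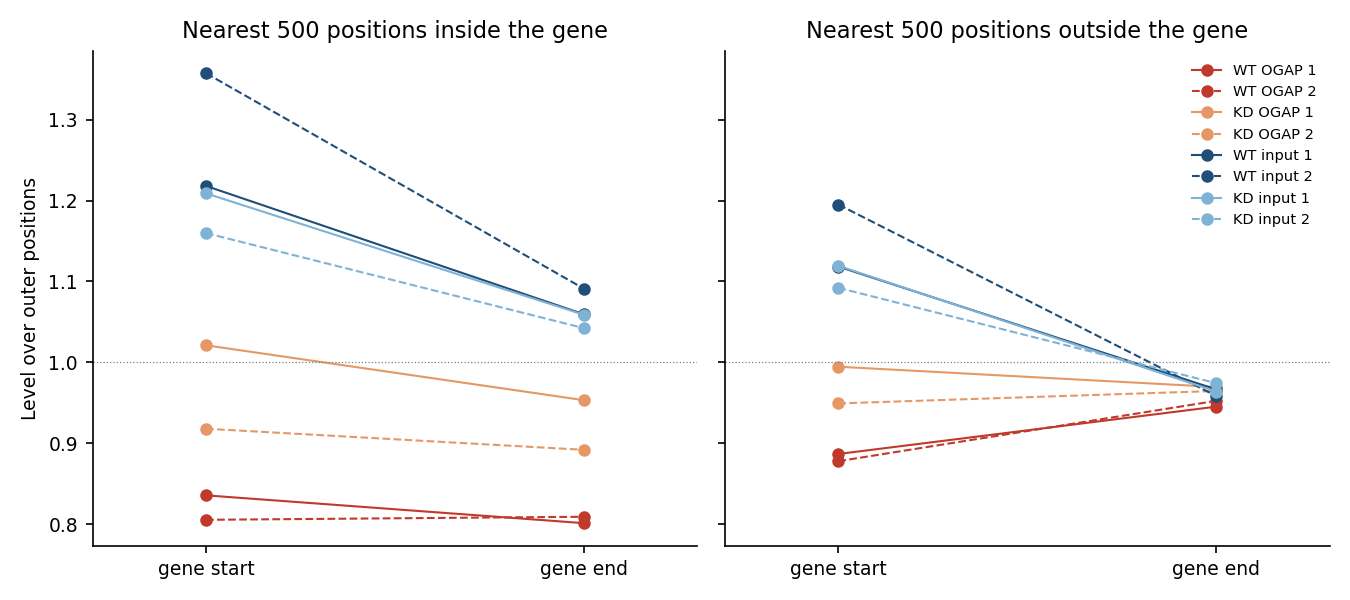
Level over outer positions (y axis) in the nearest 500 positions inside (left) and outside (right) the gene, at gene starts and gene ends (x axis), with 1 line per library; the y axis does not start at 0. Outside the gene the 8 libraries span 0.878 to 1.20 at gene starts and draw together at 0.945 to 0.974 at gene ends. At gene ends that window averages the end of the OGAP depletion with the recovered stretch beyond it. Over the nearest 200 positions after gene ends, OGAP minus input was -0.0813.

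A second deposited profile, in which the exons of each gene were scaled to 1000 bins and followed by 1000 downstream bins, gave a view of the same boundary. In the last 100 exon bins the level was 0.772 and 0.783 in the WT OGAP pair, 0.945 and 0.879 in the KD OGAP pair, 1.05 and 1.08 in WT input, and 1.05 and 1.04 in KD input, relative to the outermost 500 bins of each flank. All OGAP libraries were below all inputs, with a difference of -0.207. The first 100 downstream bins stood at 0.847 and 0.861 in the WT OGAP pair, and 0.930 and 0.913 in the KD OGAP pair. The inputs lay at 0.970 to 0.985, a difference of -0.0897. Downstream minus exon was positive in 3 OGAP libraries (0.0751, 0.0786 and 0.0341) and negative in KD OGAP 1 (-0.0157) and in all inputs (-0.0966 to -0.0545). OGAP minus input was 0.118 for this step, and for all 3 measures the exact permutation p was 0.0286 (adjusted p = 0.0286 over 3). Leaving out any 1 input gave an adjusted p of 0.0571 for the 3 measures, at -0.212 to -0.198 for the last exon bins, -0.0921 to -0.0873 for the first downstream bins and 0.110 to 0.124 for the step. In the next 100 downstream bins the level was 0.988 to 0.999 in OGAP and 0.973 to 0.984 in input. The low stretch of OGAP therefore ended soon after the boundary in this table too, and exon bins in the middle of the gene, at 0.870 to 1.01 in OGAP, stood above the last ones in all 4 libraries. Input was also higher in the middle bins, at 1.08 to 1.17, than in the last ones.

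The genes behind the sums are not named by the table, and no sequence of a gene end was used here. In RefSeq GRCh38.p14, 15843 of 20056 protein-coding genes could be given a strand. Of these, 91.0% span 3000 bases or more, so that a window of that length before the gene end lies within the gene for most of them. Another protein-coding gene spans the base just after the gene end in 15.0%, the base 1000 further on in 23.0% and the base 3000 further on in 31.2%. The far side is thus a mixture of intergenic DNA and other genes. The spacing of the positions is not given in the sources used here, so these distances in bases cannot be laid over the profile exactly.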

How the data were processed

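OGAP-seq was run on genomic DNA of RPE1 cells. Per the submitters' processing notes, hg38 was the build, and MACS2, featureCounts, bedtools and BWA (0.7.17-r1188) were among the tools. Their roles, the filters and the scale of the profiles were not stated in these sources. As deposited by the authors, coverage signal is given as whole-number sums over genes, for 6000 positions around gene starts, 6000 around gene ends and 3 times 1000 scaled bins. Their deposited raw counts of reads in 19957 promoter windows were used only as a rough guide to depth, which they do not measure alone. Libraries were matched by doxycycline status and replicate number per the labels. No per-sample column was left out.

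The gene end was taken between positions 3000 and 3001, and lower positions as the gene side. Each profile was divided by the mean of its outermost 1000 positions per side. Windows were 2000 and 500 positions a side and 12 bins of 500; low and high points were read from a running mean of 50 positions on either side. The tests were exact two-sided permutation tests over libraries (Python 3.11.15, numpy 2.4.6), Benjamini-Hochberg adjusted within a family, with a threshold of 0.05; SEs come from the library SDs. The measures were tested on simulated profiles. No gene can be named from the sums; the text names these windows, bins and extreme points. Windows and tests were chosen with earlier results of these data known. Alternatives changed the divisor, the window, the statistic, the pairing and the libraries. The counting errors given cover counting error only.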

Additional observations from a re-analysis of the deposited data

Results flagged for a closer look

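In 3 measures the libraries of KD and WT separated in opposite directions in pulled-down and in input DNA. For the 2000 positions before the gene end, every KD OGAP library was above every WT OGAP library while every KD input was below every WT input, and the effects differed by 0.0809. The nearest 500 positions before the gene end gave 0.142, with the same directions. For the ratio of the after flank to the before flank the directions were lower in KD OGAP and higher in KD input, and the effects differed by -0.0696. The exact permutation p was 0.056 in each, the smallest that the design allows, so none passed 0.05. The separation of the inputs in the flank ratio rests on 0.96994 in WT input 1 against 0.97017 in KD input 1. Over the 2000 positions before the gene end it rests on 1.0436 in WT input 1 against 1.0409 in KD input 1. In the nearest 500 positions it rests on 1.0593 in WT input 1 against 1.0586 in KD input 1, a gap below the counting error of 0.00336 and 0.00344.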

How the results depend on the processing

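Comparisons of KD with WT, and of gene sides or gene ends and starts within 1 assay, cannot pass 0.05 with these libraries, so keeping their side of the threshold says nothing of their stability. With the replicate block (libraries of the same state and number as pairs), the OGAP minus input differences were unchanged in size, at -0.111 and 0.0279 for 2000 positions before and after, 0.139 for after minus before, -0.199 and 0.191 for the nearest 500 before and the step, 0.0918 for the flank ratio, and -0.207, -0.0897 and 0.118 for the scaled exon bins, downstream bins and step; none passed, and 0 bins did, since 4 pairs cannot go below an exact p of 0.13. Between KD and WT there was no call for the block to change. The numbers did not pair the libraries throughout: replicate differences correlated at -0.092 between WT OGAP and WT input, 0.57 between KD OGAP and KD input, -0.072 between the OGAP groups and -0.64 between the inputs. Crossed numbers in the inputs, added after seeing the data, gave 0 calls, as 2 pairs must.

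The divisor mattered for the after side. OGAP minus input over 2000 positions after the gene end was -0.0165 with the after flank. For the nearest 500 after, it was 0.0362 with the before flank, -0.0507 with the after flank, 0.0190 with the mean of all positions and 0.0304 with medians, and -0.0813 over 200 positions. KD minus WT in OGAP turned to 0.00768 (after flank) and 0.00416 (windows of 1000) for the after side, and to -0.00312 (before flank) and -0.00856 (medians) for the nearest 500 after. In input it turned to -0.00678 and -0.00572 for these windows with the after flank. The difference of the KD effects turned to 0.0145 for the after side (after flank), and to -0.0211 (before flank), -0.00829 (mean of all positions) and -0.0151 (medians) for the nearest 500 after. Gene end minus gene start in input before the anchor turned to 0.0155 (after flank), 0.0395 (mean of all) and 0.0104 (medians). With the after flank, 1 bin was higher in OGAP. Positions after the gene end with OGAP lower were 2.67% (before flank), 12.8% (after flank) and 9.33% (line through both flanks); with OGAP higher, 1.97% (after flank) and 32.5% (line); before it, with OGAP lower, 60.0% (before flank). Other than by the divisor's own construction, the cause of these turns was not tested.

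Leaving out 1 library at a time gave OGAP minus input ranges of -0.126 to -0.1001 before, 0.0249 to 0.0302 after, -0.0116 to -0.0035 for the nearest 500 after, 0.126 to 0.157 for after minus before, -0.229 to -0.178 for the nearest 500 before, 0.175 to 0.217 for the step and 0.0826 to 0.103 for the flank ratio. For the scaled table they were -0.241 to -0.183, -0.104 to -0.0762 and 0.106 to 0.137. Bins lower in OGAP ranged from 0 to 6 and higher from 0 to 5, and KD minus WT in input after the gene end from -0.000751 to 0.0120. In the nearest 500 positions before the gene end, counting errors of 0.00319 to 0.00353, a lower limit, stood beside SDs between replicates of 0.0056 (WT) and 0.0434 (KD) for OGAP and of 0.0224 (WT) and 0.0117 (KD) for input. The part of depth in these comparisons was not tested.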
